A study of Mus musculus with 48 samples.

Results

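The 33 genes described here belong to the oligodendrocyte lineage, the cells that make the myelin of the brain. They were taken by symbol from a table of 56893 genes, where all 33 were present, and all 33 were among the 17352 genes with counts high enough to be tested. By their known roles they fall into 2 precursor genes, 5 genes of committed and newly formed cells, 4 transcription factors of the lineage, 9 myelin sheath proteins, 6 genes of myelin lipid synthesis and metabolism, 2 gap junction genes and 5 other genes of mature cells. Polyadenylated RNA had been sequenced from 1 brain hemisphere of each of 48 mice aged 5.5 to 8.5 months. Sex, genotype and feeding state define 12 groups with 4 mice apiece. Control mice had the genotype Grin1fl/fl, in which loxP sites flank both copies of the gene for a subunit that every NMDA receptor of glutamate signalling needs, and carried no recombinase. A single control, female control unrestricted replicate 2, was Grin1fl/+. Knockout mice had the genotype Aldh1a1+/P2A-CreERT2::Grin1fl/fl, so that the inducible recombinase CreERT2 is made only by cells that use the Aldh1a1 gene. Unrestricted mice had been singly housed with chow for about 48 hours. Restricted mice had gone through 2 nights without free food, with chow given between the nights. Refed mice had gone through the same 2 nights and then had grain-based pellets from a feeding device at will for 72 hours. Refed mice therefore differed from unrestricted mice in diet, feeding device and time in single cages as well as in past restriction, and these cannot be told apart. Induction of the recombinase is not given in the sources used here, and a hemisphere contains far more cells than the ones that use Aldh1a1.

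Oligodendrocytes arise throughout life from precursor cells that carry the growth factor receptor Pdgfra and the proteoglycan Cspg4. A committed cell passes through a short state marked by Gpr17, Enpp6 and Bcas1, and then, under the transcription factors Sox10 and Myrf, makes the proteins and the galactose-bearing lipids of which the myelin sheath is built. Mature cells also supply axons with metabolites and are coupled to one another and to astrocytes by gap junctions. In RNA of whole tissue, fewer cells of a type and less of an RNA in each cell cannot be told apart.

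Levels are given as CPM, the count of a gene relative to its library's scaled total, and differences on the log2 scale with their standard error (SE). A gene is called, and is said to have risen or fallen, where its p-value from edgeR's quasi-likelihood test, adjusted over all 17352 genes with the Benjamini-Hochberg method, was under 0.05. Library totals ranged from 7574827 to 16185373 estimated counts, with medians of 10465440 in unrestricted, 11009993 in restricted and 10593572 in refed mice. The gene Rn18s-rs5, named here after its values were seen, took 7.78% of the counts in female knockout unrestricted replicate 2. It took 1.92% in male knockout restricted replicate 3 and at most 0.398% in any other library. Aldh1a1 was at 190 ± 27.3 CPM in the 24 controls and at 101 ± 16.7 CPM in the 24 knockouts (SD), a fall by 0.92 ± 0.05 (SE; adjusted p in edgeR 1.42e-16). Grin1 differed between them by 0.02 ± 0.04. Library numbers in the labels were not spread evenly: all 16 refed libraries, 7 of 16 restricted and 5 of 16 unrestricted libraries are numbered up to 28.

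In the 16 unrestricted mice the levels of the 33 genes, divided by transcript length, spanned 3 orders of magnitude. Mbp, which encodes myelin basic protein, stood highest at 3200 ± 669 CPM per kilobase (SD), followed by Mobp, a related compact myelin protein, at 1770 ± 475. The next were Plekhb1, a membrane-bound protein with a pleckstrin homology domain, at 226 ± 35.7 and Bcas1 at 173 ± 46.9, and these neighbours overlapped between mice, as did Mbp and Mobp. Trf, which encodes the iron carrier transferrin, Cnp, a myelin phosphodiesterase, Car2, a carbonic anhydrase, and Mag, the adhesion protein of the inner myelin layer, lay between 109 and 163. Mal, Cldn11, Enpp2 and Olig1 lay between 56.2 and 99.5, Mog came next, and the following 14 genes, from Tspan2 down to Olig2, lay between 10.8 and 22.6. The lowest were Tcf7l2 at 7.66, Gpr17 at 5.21, Pdgfra at 5.17, Cspg4 at 2.49, Enpp6 at 1.97 and Ninj2, an adhesion protein, at 1.70 CPM per kilobase. Markers of every stage of the lineage were thus present in the hemisphere in all libraries.

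After 2 nights of restriction 20 of the 33 genes fell and 3 rose, against the unrestricted mice of both sexes and genotypes. Of all genes tested, 7.84% fell and 7.31% rose in that comparison. The 33 genes were chosen with earlier results of these data known. The median difference of the 33 genes was -0.28, where the median of all genes was close to 0. The largest falls were in Opalin, Ugt8a, Ninj2, Car2 and Gjb1, and the rises were in Hapln2, Pdgfra and Cldn11. Leaving out any 1 of the 32 libraries left 23 calls. The plot of changes between feeding states shows these differences for each sex.

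**Figure D1:**
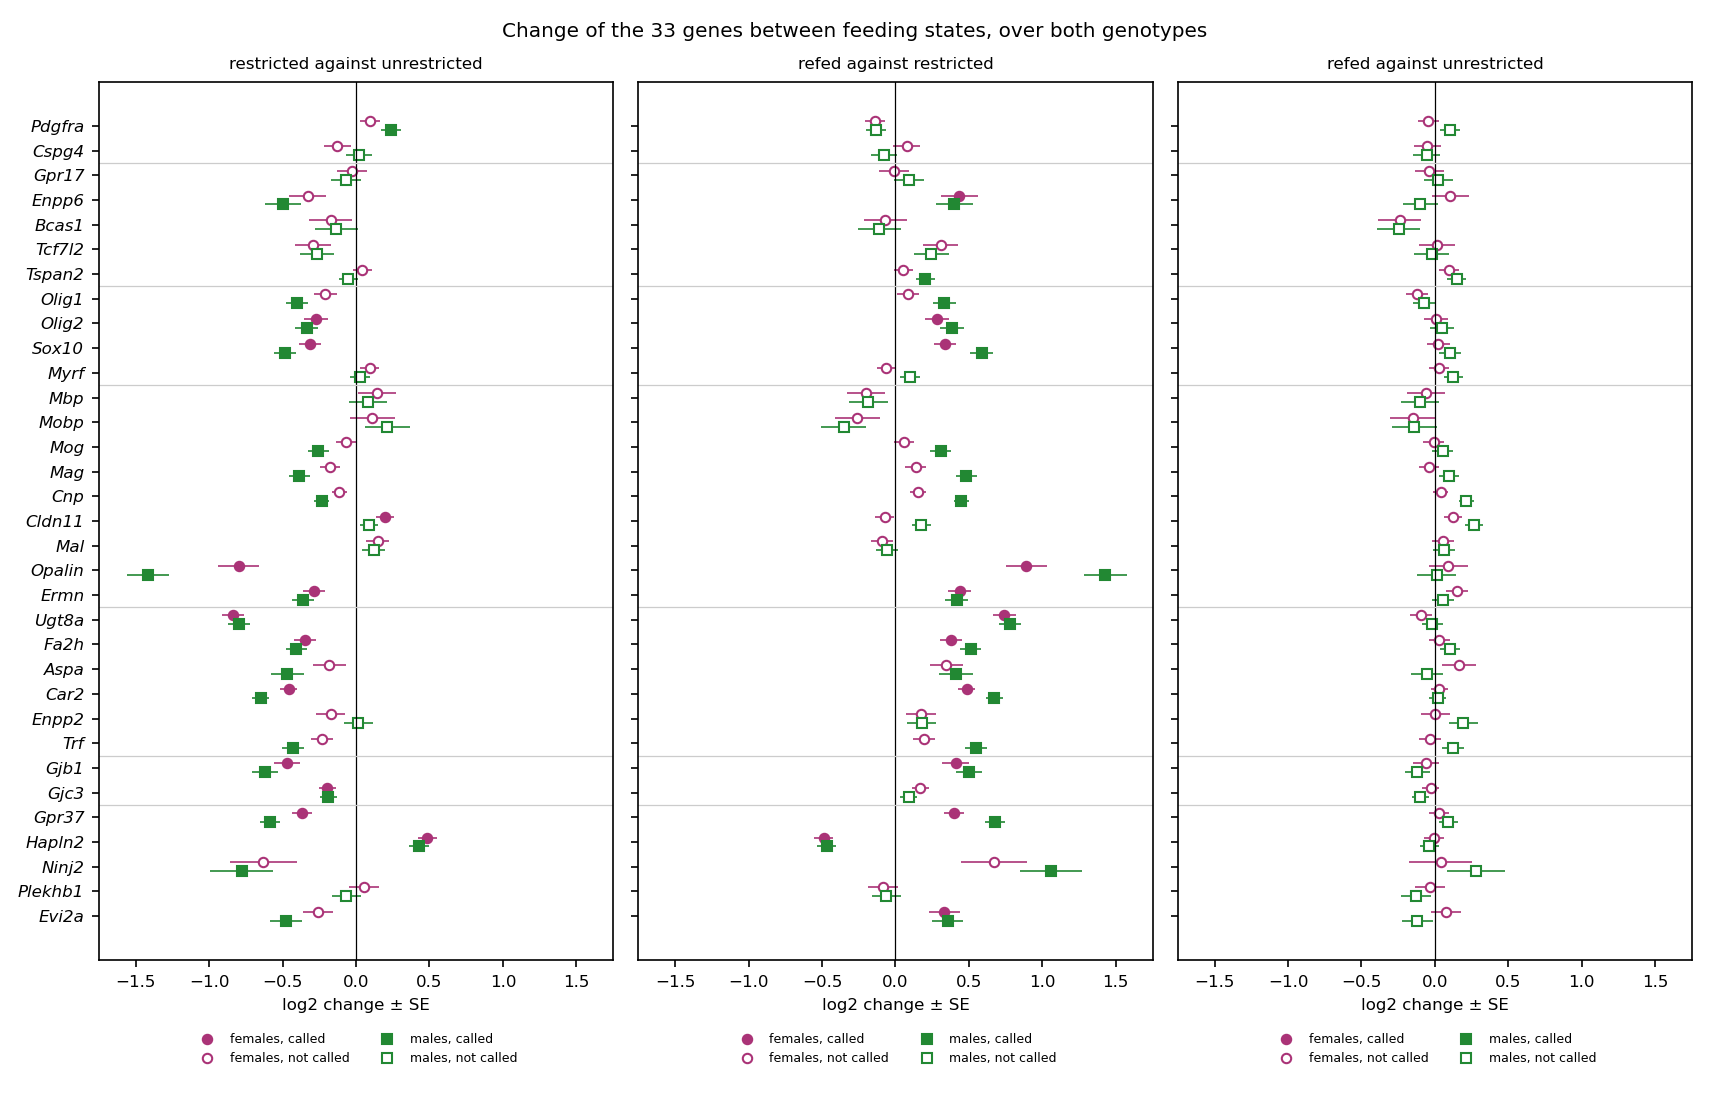
Differences of the 33 genes between feeding states, over both genotypes, in females (circles) and males (squares), with the log2 change on the horizontal axis, bars for the SE and filled symbols for called genes; grey lines part the gene roles. With restriction most points lie left of 0 and with refeeding right of 0, with Opalin farthest out in males at -1.42 and Hapln2 on the opposite side, while refed mice lie around 0 against unrestricted mice.

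Neither of the 2 precursor genes fell, whereas 5 of 12 further precursor genes did. Pdgfra, the receptor that keeps precursors dividing, had a lowest, median and highest level of 29.8, 34.4 and 38.4 CPM in unrestricted mice and of 31.6, 38.6 and 46.5 CPM in restricted mice. The groups overlapped, and the rise was 0.17 ± 0.05 (adjusted p in edgeR 0.0138). It lost its call within each range of library numbers, at 0.19 up to 28 and 0.13 from 29. Fibroblasts also make Pdgfra, and their part in its rise was not tested. Cspg4 had medians of 19.5 and 19.4 CPM and a difference of -0.05 ± 0.06.

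Genes of committed and newly formed cells were divided. Enpp6, a choline phosphodiesterase of newly formed oligodendrocytes, had a lowest, median and highest level of 7.76, 10.4 and 11.2 CPM in unrestricted mice and of 4.69, 7.53 and 9.60 CPM in restricted mice, a fall by 0.41 ± 0.09 (adjusted p in edgeR 0.000695). All 16 restricted mice lay below the unrestricted median, though the ranges overlapped. Tcf7l2, a transcription factor of the Wnt pathway that neurons of the thalamus also use, fell by 0.28 ± 0.09 (adjusted p in edgeR 0.0182), with overlapping ranges of 21.9 to 37.7 and 18.4 to 37.1 CPM. The receptor gene Gpr17, which marks the committed state, the early myelin gene Bcas1 and the tetraspanin gene Tspan2 were not called, at -0.05, -0.15 and -0.01. Bcas1 spread widely among unrestricted mice, from 364.5 to 841 CPM, and there it was at a median of 410.0 CPM in the libraries numbered up to 28 and of 620 in those from 29.

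Of the 4 transcription factors, Sox10, Olig1 and Olig2 fell and Myrf was not called. Sox10, which is needed at every stage from specification to myelination, was at 40.1 to 53.5 CPM in unrestricted mice, with a median of 42.5, and at 26.7 to 39.9 CPM in restricted mice, with a median of 33.6. All 16 restricted mice were below all 16 unrestricted mice, and the fall was 0.40 ± 0.05 (adjusted p in edgeR 2.9e-07). Olig1 fell by 0.30 ± 0.05, from a median of 119 to one of 99.4 CPM, and its neighbour and relative Olig2 by 0.30 ± 0.06, from 27.3 to 21.3 CPM. Both lost their call in some other fits. In libraries numbered up to 28 the Olig1 medians were 124 and 113 CPM, and from 29 they were 118 and 85.3 CPM. For Olig2 they were 29.7 and 26.5 CPM up to 28, and 27.2 and 20.3 CPM from 29. Myrf, the factor that switches on myelin genes in maturing cells, had medians of 73.9 and 78.8 CPM and a difference of 0.06 ± 0.05 (adjusted p in edgeR 0.451).

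The 9 myelin sheath genes did not move together: 5 fell, 1 rose and 3 were not called. Opalin, a glycoprotein of the myelin loops next to the node, had the largest fall of the 33. Its lowest, median and highest levels were 22.3, 32.7 and 38 CPM in unrestricted mice and 7.09, 13.5 and 30.2 CPM in restricted mice, a fall by 1.11 ± 0.10 (adjusted p in edgeR 1.92e-11). In males the groups did not touch, with 22.3 CPM the lowest unrestricted and 17.8 CPM the highest restricted level, and in females 3 knockouts at 27.8 to 30.2 CPM reached into the unrestricted range. Ermn, a cytoskeletal protein of the outer sheath, fell by 0.32 ± 0.05 from a median of 83.3 to one of 70.3 CPM, and its highest restricted mouse, at 76.2 CPM, was below the lowest unrestricted one, at 77.3 CPM. Mag fell by 0.28 ± 0.05, from a median of 223 to one of 174 CPM. Cnp and Mog, a glycoprotein of the sheath surface, fell less, by 0.18 ± 0.04 and 0.16 ± 0.05, and the restricted ranges of all 3 reached into the unrestricted ones.

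Mbp and Mobp, the most abundant sheath genes, and also Mal and Cldn11 were not lower. Mbp was at 4606 to 10230 CPM in unrestricted and at 4556 to 9564 CPM in restricted mice, with medians of 6695 and 8036, and its difference of 0.11 ± 0.09 was not called. Mobp, with medians of 2434 and 3314 CPM, differed by 0.16 ± 0.11 and Mal, a proteolipid of lipid rafts, by 0.13 ± 0.05 (adjusted p in edgeR 0.361 and 0.0885). Cldn11, the claudin that seals the layers of the sheath, rose by 0.14 ± 0.05 (adjusted p in edgeR 0.0216), from a median of 131 to one of 147 CPM, and was not called within either range of library numbers, at 0.13 up to 28 and 0.12 from 29. Sorted by level per length, 4 of the 11 most abundant genes fell, with a median difference of -0.08, against 9 of the middle 11 and 7 of the lowest 11, with medians of -0.32 and -0.30. Mbp and Mobp spread widely between unrestricted mice, with an SD of 1442 CPM around a mean of 6892 for Mbp and of 744.2 around 2779 for Mobp. Their medians there also differed by library number. Mbp was at 5483 CPM up to 28 and 7527 from 29, and Mobp at 2136 and 3133 CPM.

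Among genes of myelin lipids and metabolism, 5 of 6 fell. Ugt8a encodes the enzyme that adds galactose to ceramide and so makes the main glycolipid of myelin. It had a lowest, median and highest level of 54.6, 61.4 and 78.7 CPM in unrestricted mice and of 27.9, 36.02 and 42.2 CPM in restricted mice. The 2 states were far apart in every group of sex and genotype, and the fall was 0.82 ± 0.05, a level of 0.568 times the unrestricted one (adjusted p in edgeR 8.55e-16). Its value was the same in both ranges of library numbers, at -0.81 up to 28 and -0.81 from 29. Fa2h, which hydroxylates the fatty acids of these lipids, fell by 0.38 ± 0.05, from a median of 45.3 to one of 34.3 CPM, with slight overlap. Elsewhere in this pathway the pattern did not hold: of 14 further genes of sphingolipid synthesis, transfer and breakdown, of which 1 (Plp2) is a proteolipid, 2 fell (the elongase gene Elovl7 by 0.40 and the glycolipid carrier gene Gltp by 0.23) and 1 rose.

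Car2, which supports ion and water transport, was at 208 to 264 CPM in unrestricted mice and at 137 to 199.5 CPM in restricted mice, with medians of 240.4 and 163. All 16 restricted mice were below all 16 unrestricted mice, and the fall was 0.55 ± 0.04 (adjusted p in edgeR 3.88e-14). Aspa, the enzyme that frees acetate for lipid synthesis from N-acetylaspartate, fell by 0.33 ± 0.08 (adjusted p in edgeR 0.00343) and Trf by 0.33 ± 0.05 (adjusted p in edgeR 1.03e-05), both with overlapping ranges. Trf is also made by the choroid plexus, and so is Enpp2, the enzyme autotaxin, which differed by -0.08 ± 0.07 and was not called. None of 8 choroid plexus markers was called in this comparison.

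Both gap junction genes fell. The connexin gene Gjb1 went from a lowest, median and highest level of 17.01, 22.1 and 26.6 CPM to 11.3, 15.01 and 18.6 CPM, a fall by 0.55 ± 0.06 (adjusted p in edgeR 1.3e-08) with little overlap. Gjc3, another connexin gene, fell by 0.19 ± 0.04, from a median of 86.6 to one of 74.0 CPM. Of the other mature genes, the orphan receptor gene Gpr37 fell by 0.48 ± 0.05, from a median of 85.7 to one of 60.4 CPM. Evi2a, a membrane protein gene inside an intron of Nf1, fell by 0.37 ± 0.07, from 51.4 to 43.1 CPM, and Ninj2 by 0.70 ± 0.16, at levels of only 0.531 to 2.48 CPM over both states. Plekhb1 differed by -0.01 ± 0.07.

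Hapln2, a link protein of the matrix around nodes of Ranvier, moved the other way. It was at 43.4 to 68.8 CPM in unrestricted mice, with a median of 57.6, and at 61.8 to 90.0 CPM in restricted mice, with a median of 77.7, a rise by 0.46 ± 0.05 (adjusted p in edgeR 4.81e-10). In 3 of the 4 combinations of sex and genotype the 4 restricted mice were above the 4 unrestricted ones, and the female controls overlapped, at 61.8 to 86.2 against 51.6 to 62.5 CPM. In the GENCODE annotation, 195 bases of Hapln2 exons, 3.7%, are shared with the antisense RNA Gm19439, named here after its values were seen. The symbol Gm19439 is carried by 2 annotated entries on that chromosome, 1 of which overlaps Hapln2. Its counts rose from a median of 21.5 to one of 46.8 CPM with restriction, by 1.31 ± 0.11 (adjusted p in edgeR 6.53e-12), and the ranges of 11.4 to 29 and 35.4 to 74.2 CPM did not overlap. Strand use in the counting is not given in the sources used here, and without it reads of Hapln2 and of its antisense partner cannot be told apart. In all, 20 of the 33 genes share exon bases with another annotated gene, 8 of them with a gene that was tested. Gm38642, an RNA on the strand of Mobp that shares 219 bases with it (2.4%), also rose with restriction, by 0.66 ± 0.13 (adjusted p in edgeR 0.00019), at medians of 1.47 and 2.21 CPM, and is likewise named after its values were seen. Its symbol is carried by 2 annotated entries. Zfp57, which covers 64.6% of the exon bases of Mog, was at medians of 7.42 and 7.41 CPM in unrestricted and restricted mice, and Dnajc7, beside Cnp, at 117 and 117 CPM.

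**Figure D2:**
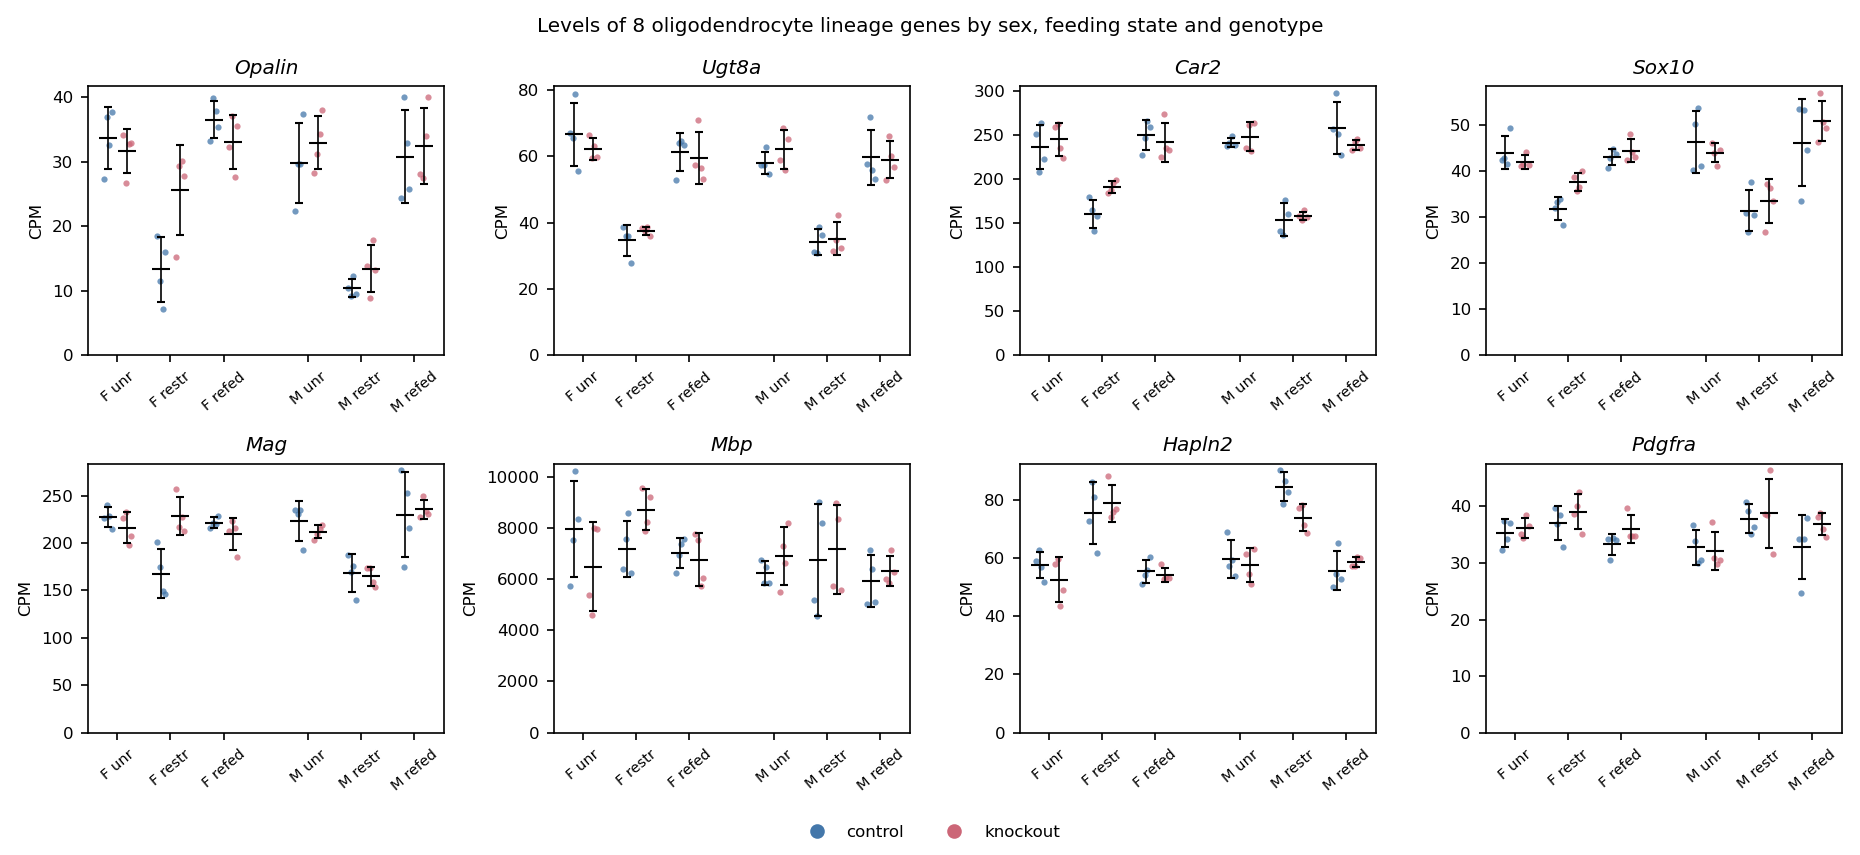
CPM of 8 of the genes in each of the 48 mice (points; blue control, red knockout) by sex (F, M) and feeding state (unr, unrestricted; restr, restricted), with the mean and SD of each group of 4 in black and all vertical axes starting at 0. Ugt8a and Car2 drop in all restricted groups, Opalin drops less in female knockouts, Hapln2 rises and Mbp spreads widely within groups.

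Counted within each combination of sex and genotype, the 4 restricted mice were below the 4 unrestricted ones in all 4 combinations for 5 genes, Sox10, Ermn, Ugt8a, Car2 and Gpr37, where 0.231% of all genes tested did so. None of the 33 genes was above in all 4 combinations, where 0.444% of all genes were. In females 10 genes fell (3.25% of all genes did), and in males 19 fell (3.83%). The 10 that fell in females (Olig2, Sox10, Opalin, Ermn, Ugt8a, Fa2h, Car2, Gjb1, Gjc3 and Gpr37) all fell in males. The change with restriction was not shown to differ by sex: 0 of the 33 genes and 0% of all genes (0 of 17352) were called for the difference in edgeR, and DESeq2 and limma called 0 of the 33 as well. At an unadjusted p under 0.05 there were 4 genes, Opalin, Mag, Car2 and Gpr37, with the fall smaller in females by 0.62, 0.21, 0.19 and 0.22, where 2.48% of all genes had a positive difference at that threshold.

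Among the 5 unrestricted and 7 restricted mice with library numbers up to 28, 9 genes fell and 1 rose (2.12% and 1.74% of all genes did). Among the 11 and 9 mice from 29, 17 fell and 1 rose (4.82% and 5.02%). With that split as a term in the fit of all libraries, 20 fell and 3 rose (7.83% and 7.16%). Opalin fell by 0.64 in the lower range of numbers and by 1.32 in the upper one, and Gpr37 by 0.34 and 0.59. Of the 4 restricted female knockouts, 3 are numbered up to 28 and 1 from 29. Opalin was at 15.3, 29.4 and 30.2 CPM in the former and at 27.8 CPM in the latter. The ranges thus differ also in their mix of sex and genotype, and its part in these values was not tested. Car2, at -0.56 and -0.55, and Sox10, at -0.38 and -0.39, had like values in both.

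Further genes of the lineage, listed in addition to the 33, are shown in the plot of other gene lists. Like the 33, they were chosen with earlier results of these data known, so their counts are not independent of these data. Of 27 further genes of mature oligodendrocytes, 17 fell and 2 rose, with a median of -0.31. They included Serpinb1a, a protease inhibitor (-0.94 ± 0.08), Pllp, a proteolipid (-0.68 ± 0.06), Tmem88b (-0.47 ± 0.04) and Il33, a nuclear cytokine (-0.38 ± 0.05). Of 14 further genes of newly formed cells 1 fell, Rras2, by 0.26 ± 0.07, and the median was 0.01. Of 12 further precursor genes 5 fell, among them Sox6 (-0.24 ± 0.05), and 2 rose, Vcan (0.26 ± 0.06) and Neu4 (0.22 ± 0.07), with a median of -0.14. Cholesterol, which the brain makes for itself and which is a main lipid of myelin, was represented by 22 genes of its synthesis, uptake and control. Of these 19 fell, with a median of -0.23, among them Hmgcs1, an early enzyme of the pathway, by 0.40 ± 0.04.

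Markers of other cell types also moved with restriction, and their part in the changes above was not tested. None of 8 neuronal markers was called, and their summed level was 5136 to 6227 CPM in unrestricted and 5219 to 6447 CPM in restricted mice. Of 8 microglial markers 4 fell, with Cx3cr1 at -0.46 ± 0.06 and P2ry12 at -0.39 ± 0.06, and their sum went from 291 to 343.5 CPM to 254 to 333 CPM. Of the 4, C1qa (-0.14 ± 0.05) changed sign in libraries numbered up to 28, and kept its call in 26 of 32 fits without 1 library. Of 6 mural cell markers 3 fell, of 7 fibroblast markers 2 fell, and of 7 endothelial markers 2 fell and 1 rose. Of 8 astrocyte markers Gjb6 and Aldoc rose and Aqp4 fell, with sums of 3422 to 3972 and 3368 to 4023 CPM. Of 5 Schwann cell markers Ncmap rose and Egr2 fell.

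**Figure D3:**
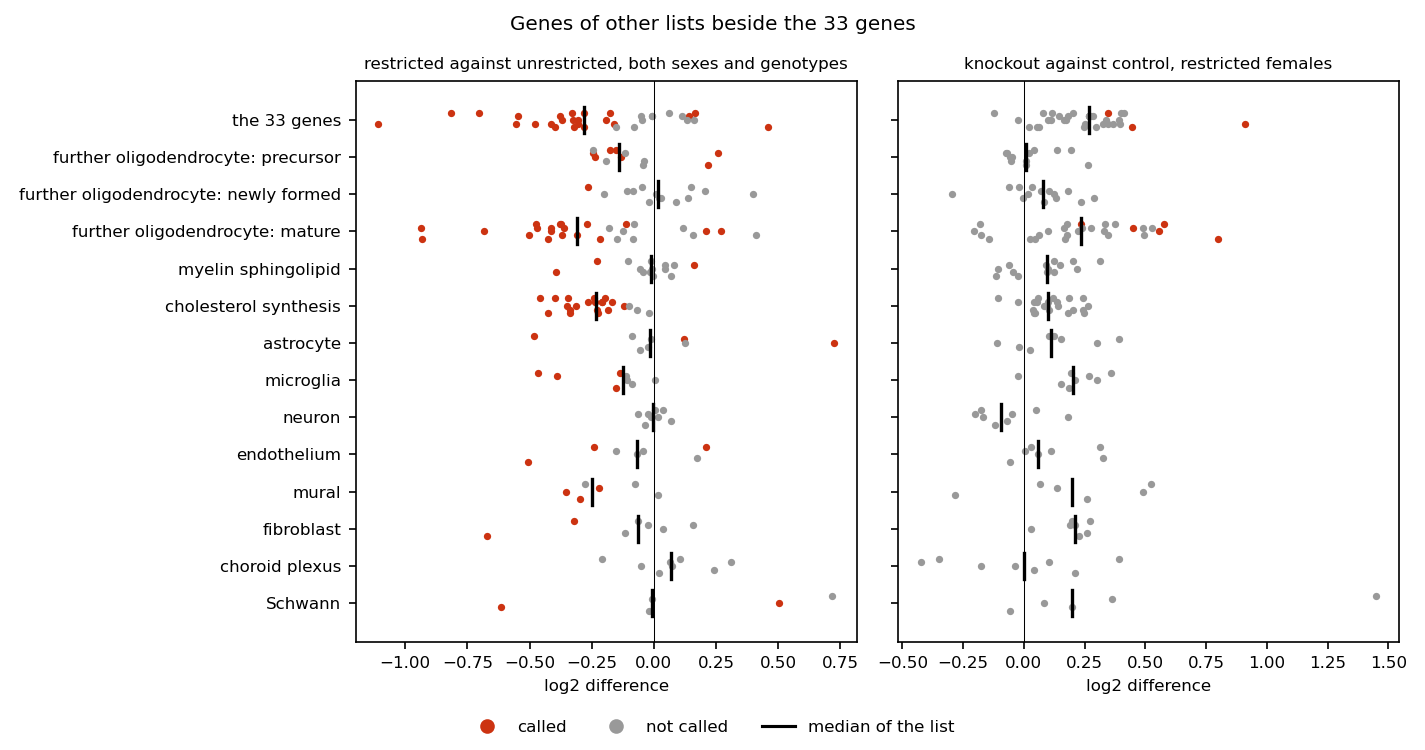
Log2 differences of single genes (points; red called, grey not called) in the 33 genes and in 13 further lists, with a black bar at each list's median, for restriction (left) and for genotype in restricted females (right). The lists of mature oligodendrocyte and cholesterol synthesis genes lie left of 0 on the left panel, with medians of -0.31 and -0.23, and neuronal markers lie at 0.

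Since many of the 33 genes moved together, the 250 bases before the start of each canonical transcript were searched on both strands of GRCm39 for short sequences known to be bound by factors of the lineage or of fasting. The letters were ACAAAG or ACAATG for SOX factors, CTGGNAC for Myrf, AGAACA for a glucocorticoid receptor half-site and TGTTTAC for FOXO factors, and the motifs do not contain one another. A SOX sequence was in 16 of 33 windows (48.5%) and in 19.7% of the windows of 17050 tested genes. It was in 10 of the 20 genes that fell with restriction (50.0%) and in 5 of the 10 that were not called (50.0%). The Myrf sequence was in 21.2% of the 33 windows against 16.3% of all, the FOXO sequence in 6.06% (Gpr37 and Ninj2) against 2.44%, and the half-site in 3.03% (Mbp alone) against 12.1%. A match is only a run of letters in the window, and no binding was measured. The windows below hold a SOX sequence and at most 30 bases of annotated exons, and belong to 4 genes that fell with restriction and 2 that were not called. Capitals mark any of the motifs, on either strand.
Opalin, chr19:41065553-41065802, minus strand: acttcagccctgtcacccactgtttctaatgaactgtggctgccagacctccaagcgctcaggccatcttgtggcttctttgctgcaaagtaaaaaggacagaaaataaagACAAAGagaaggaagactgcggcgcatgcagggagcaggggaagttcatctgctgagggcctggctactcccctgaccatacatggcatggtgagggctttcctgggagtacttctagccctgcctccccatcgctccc
Gpr37, chr6:25690729-25690978, minus strand: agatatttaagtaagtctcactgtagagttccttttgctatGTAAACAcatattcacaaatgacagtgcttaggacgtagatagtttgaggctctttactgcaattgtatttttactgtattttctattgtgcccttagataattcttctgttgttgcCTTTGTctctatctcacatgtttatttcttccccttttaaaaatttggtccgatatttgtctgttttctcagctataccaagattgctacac
Enpp6, chr8:47439669-47439918, plus strand: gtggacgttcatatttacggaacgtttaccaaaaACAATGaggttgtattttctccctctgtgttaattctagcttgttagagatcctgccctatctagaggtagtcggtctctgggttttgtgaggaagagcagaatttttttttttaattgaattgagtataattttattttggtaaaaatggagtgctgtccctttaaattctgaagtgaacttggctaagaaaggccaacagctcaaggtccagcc
Ermn, chr2:57942883-57943132, minus strand: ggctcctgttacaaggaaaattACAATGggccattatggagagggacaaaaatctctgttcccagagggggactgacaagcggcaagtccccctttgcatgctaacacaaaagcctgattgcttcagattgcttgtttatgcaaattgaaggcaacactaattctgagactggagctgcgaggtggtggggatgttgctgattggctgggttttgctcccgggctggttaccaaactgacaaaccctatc
Myrf, chr19:10218162-10218411, minus strand: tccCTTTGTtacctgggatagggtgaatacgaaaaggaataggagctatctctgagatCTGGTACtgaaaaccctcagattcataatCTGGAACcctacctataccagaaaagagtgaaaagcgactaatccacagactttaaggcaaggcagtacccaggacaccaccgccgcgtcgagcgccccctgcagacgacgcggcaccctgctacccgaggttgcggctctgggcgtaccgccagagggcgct
Cspg4, chr9:56772067-56772316, plus strand: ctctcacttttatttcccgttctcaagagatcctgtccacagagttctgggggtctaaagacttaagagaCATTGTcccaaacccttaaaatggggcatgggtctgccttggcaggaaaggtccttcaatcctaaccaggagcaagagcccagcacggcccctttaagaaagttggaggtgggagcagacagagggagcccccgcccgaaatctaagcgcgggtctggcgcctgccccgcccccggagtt
These windows were chosen for a SOX sequence, which is ACAAAG in Opalin, Gpr37 and Myrf and ACAATG in Enpp6, Ermn and Cspg4. The Myrf window also holds the Myrf motif on the printed strand.

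After 72 hours of refeeding 21 of the 33 genes were higher than in restricted mice and 3 were lower, where 8.38% and 6.79% of all genes were. This comparison shares the restricted mice with the one above, so the values are given side by side and no agreement between them is counted. Opalin had a lowest, median and highest level of 24.3, 33.6 and 40.1 CPM in refed mice, a rise by 1.16 ± 0.10 from restriction (adjusted p in edgeR 5.89e-12), with overlap only from restricted female knockouts. Ugt8a, at 53.0 to 71.8 CPM with a median of 57.7, rose by 0.76 ± 0.05, and Car2, at 225 to 298 CPM with a median of 244, by 0.58 ± 0.04, and in both all 16 refed mice were above all 16 restricted mice. The same held for Fa2h, which rose by 0.44 ± 0.05 to a median of 46.9 CPM.

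Of the precursor genes, Pdgfra fell by 0.14 ± 0.05 (adjusted p in edgeR 0.0493) to a median of 34.7 CPM, and Cspg4 was at 0.00 ± 0.06. Of the 12 further precursor genes 3 rose, C1ql1 (0.36 ± 0.10), Sox6 (0.20 ± 0.05) and Ptprz1 (0.14 ± 0.05), and none fell. The fall of Pdgfra was called in 12 of 32 fits that each left out 1 library. Among genes of newly formed cells Enpp6 rose by 0.42 ± 0.09, Tcf7l2 by 0.28 ± 0.09 and Tspan2 by 0.13 ± 0.05, and Gpr17 and Bcas1 were not called, at 0.04 and -0.09. Tspan2 (adjusted p in edgeR 0.0492) was called in 9 of the 32 fits without 1 library. Sox10 rose by 0.46 ± 0.05, Olig2 by 0.33 ± 0.06 and Olig1 by 0.21 ± 0.05, and Myrf stayed uncalled at 0.02. Of the sheath genes, Ermn rose by 0.43 ± 0.05, Mag by 0.31 ± 0.05, Cnp by 0.30 ± 0.04 and Mog by 0.18 ± 0.05. Mobp fell by 0.31 ± 0.11 (adjusted p in edgeR 0.0465), and with the split of library numbers as a term its difference was -0.02 and not called, and it was called in 13 of the 32 fits without 1 library. Mbp, at -0.19 ± 0.09, Mal, at -0.08, and Cldn11, at 0.05, were not called.

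The remaining rises with refeeding were in Aspa by 0.38 ± 0.08, Trf by 0.37 ± 0.05, Gjb1 by 0.45 ± 0.06, Gjc3 by 0.13 ± 0.04, Gpr37 by 0.54 ± 0.05, Evi2a by 0.34 ± 0.07 and Ninj2 by 0.86 ± 0.16. Hapln2 fell by 0.48 ± 0.05 to a median of 55.1 CPM, and its antisense partner Gm19439 by 1.19 ± 0.11 to one of 21.7 CPM. Enpp2, at 0.18 ± 0.07 (adjusted p in edgeR 0.0814), and Plekhb1, at -0.07, were not called. In females 11 genes rose (3.51% of all genes) and in males 19 rose (4.84%), and the 11 of females were all among the 19 of males. All refed libraries are numbered up to 28, and against the 7 restricted ones of that range 15 genes rose and 2 fell (6.04% and 5.32% of all genes did). Of the further lists, 21 of 27 mature genes, 13 of 22 cholesterol synthesis genes and 6 of 8 microglial markers also rose.

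Refed mice were close to unrestricted mice. Only Cldn11 was called in edgeR, 0.20 ± 0.05 higher in refed mice (adjusted p in edgeR 0.0192), at 132 to 178 against 113 to 157 CPM, where 0.738% of all genes were called. With the split of library numbers as a term it was not called. At an unadjusted p under 0.05 there were 4 of the 33 genes, and DESeq2 and limma each called 2. The share of all genes at that unadjusted threshold is not given here, so the 4 are not set against a background. The 95% interval of the difference was -0.13 to 0.24 for Opalin, -0.16 to 0.05 for Ugt8a and -0.05 to 0.10 for Car2. Bcas1 had the lowest value, -0.24 ± 0.10, and was not called (adjusted p in edgeR 0.31). All refed libraries are numbered up to 28, and there the Bcas1 median was 448 CPM in refed and 410.0 CPM in unrestricted mice. In unrestricted mice from 29 it was 620 CPM.

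Knockout and control mice were compared over all 6 combinations of sex and feeding state, and then within each. All knockouts carried the CreERT2 allele at Aldh1a1 and no control did. Loss of Grin1, that allele and the lower Aldh1a1 level therefore cannot be told apart in these comparisons. Over all combinations 0 of the 33 genes were called in edgeR, DESeq2 or limma, where 0.00576% of all genes were called (Aldh1a1 alone). Opalin alone of the 33 had an unadjusted p under 0.05, at 0.21, and the share of all genes at that threshold is not given here. The exception among the single combinations was in restricted females.

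In restricted females 3 of the 33 genes were higher in knockouts, Opalin, Mag and Cnp, and none was lower, where 0.144% of all genes were higher. Opalin was at 18.6, 11.4, 7.09 and 16.1 CPM in the 4 controls and at 15.3, 29.4, 30.2 and 27.8 CPM in the 4 knockouts. One knockout, replicate 1, lay among the controls, and the difference was 0.91 ± 0.20 (adjusted p in edgeR 0.0273). Mag was at 201, 174.5, 149 and 146 CPM in controls and at 257, 217, 227 and 213 CPM in knockouts, a difference of 0.44 ± 0.10 (adjusted p in edgeR 0.0273), and Cnp at 289.7, 267, 244 and 262 CPM against 341, 337, 347 and 325 CPM, a difference of 0.34 ± 0.07 (adjusted p in edgeR 0.0211). For Mag and Cnp the groups did not overlap. Restricted female knockouts had means of 228 ± 20.1 CPM of Mag and 337 ± 9.04 of Cnp (SD, n = 4), and unrestricted ones of 216 ± 16.4 and 323 ± 27.9, with overlap. In female controls all 4 restricted mice were below all 4 unrestricted ones for both genes.

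The other genes leaned the same way in these mice without being called. Of the 33 genes, 31 had a positive difference, with a median of 0.27 where all genes had one close to 0, and 15 had an unadjusted p under 0.05, all higher in knockouts, where 4.95% of all genes were higher at that threshold. The uncalled ones among the 15 were Olig1 at 0.39, Olig2 at 0.40, Sox10 at 0.25, Myrf at 0.20, Cspg4 at 0.27, Mog at 0.35, Cldn11 at 0.28, Aspa at 0.34, Car2 at 0.25, Trf at 0.41, Gjb1 at 0.27 and Gpr37 at 0.36. In 9 genes all 4 knockouts were above all 4 controls (Olig1, Sox10, Mog, Mag, Cnp, Cldn11, Mal, Car2 and Plekhb1), where 3.14% of all genes were. Olig1, for example, was at 104.5, 89.7, 74.1 and 83.9 CPM in controls and at 113, 118.5, 119.5 and 112 CPM in knockouts. Ugt8a, Ermn and Fa2h, which fell with restriction, had small differences here, at 0.12 ± 0.11, 0.05 ± 0.11 and 0.14 ± 0.10.

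These calls were not stable. Without control replicate 2 or 3, or without knockout replicate 2 or 3, 0 of the 33 genes were called, without knockout replicate 1 there was 1, without control replicate 4 there were 2, without knockout replicate 4 there were 4, and without control replicate 1 there were 6. DESeq2 called 9 and limma 8, and a fit to these 8 libraries alone called 0. Of the restricted females, 3 of 4 knockouts and 1 of 4 controls have library numbers up to 28, so that genotype and numbering partly coincide. With that split as a term only Opalin was called, at 0.96, and Mag and Cnp were at 0.38 and 0.31. With each library's trend over transcript length or over GC content removed, 0 were called.

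Of 27 further mature oligodendrocyte genes 5 were higher in these knockouts, among them Qdpr (0.45 ± 0.09), Pllp (0.56 ± 0.12), Ppp1r14a (0.58 ± 0.12) and Septin4 (0.24 ± 0.06), and none was lower. No marker of another cell type was called. The median differences were 0.20 for microglial, 0.20 for mural, 0.21 for fibroblast, 0.11 for astrocyte and -0.09 for neuronal markers, and the neuronal sum was 5678 to 6174 CPM in controls and 5219 to 5528 CPM in knockouts, without overlap. The part of these shifts in the differences above was not tested.

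**Figure D4:**
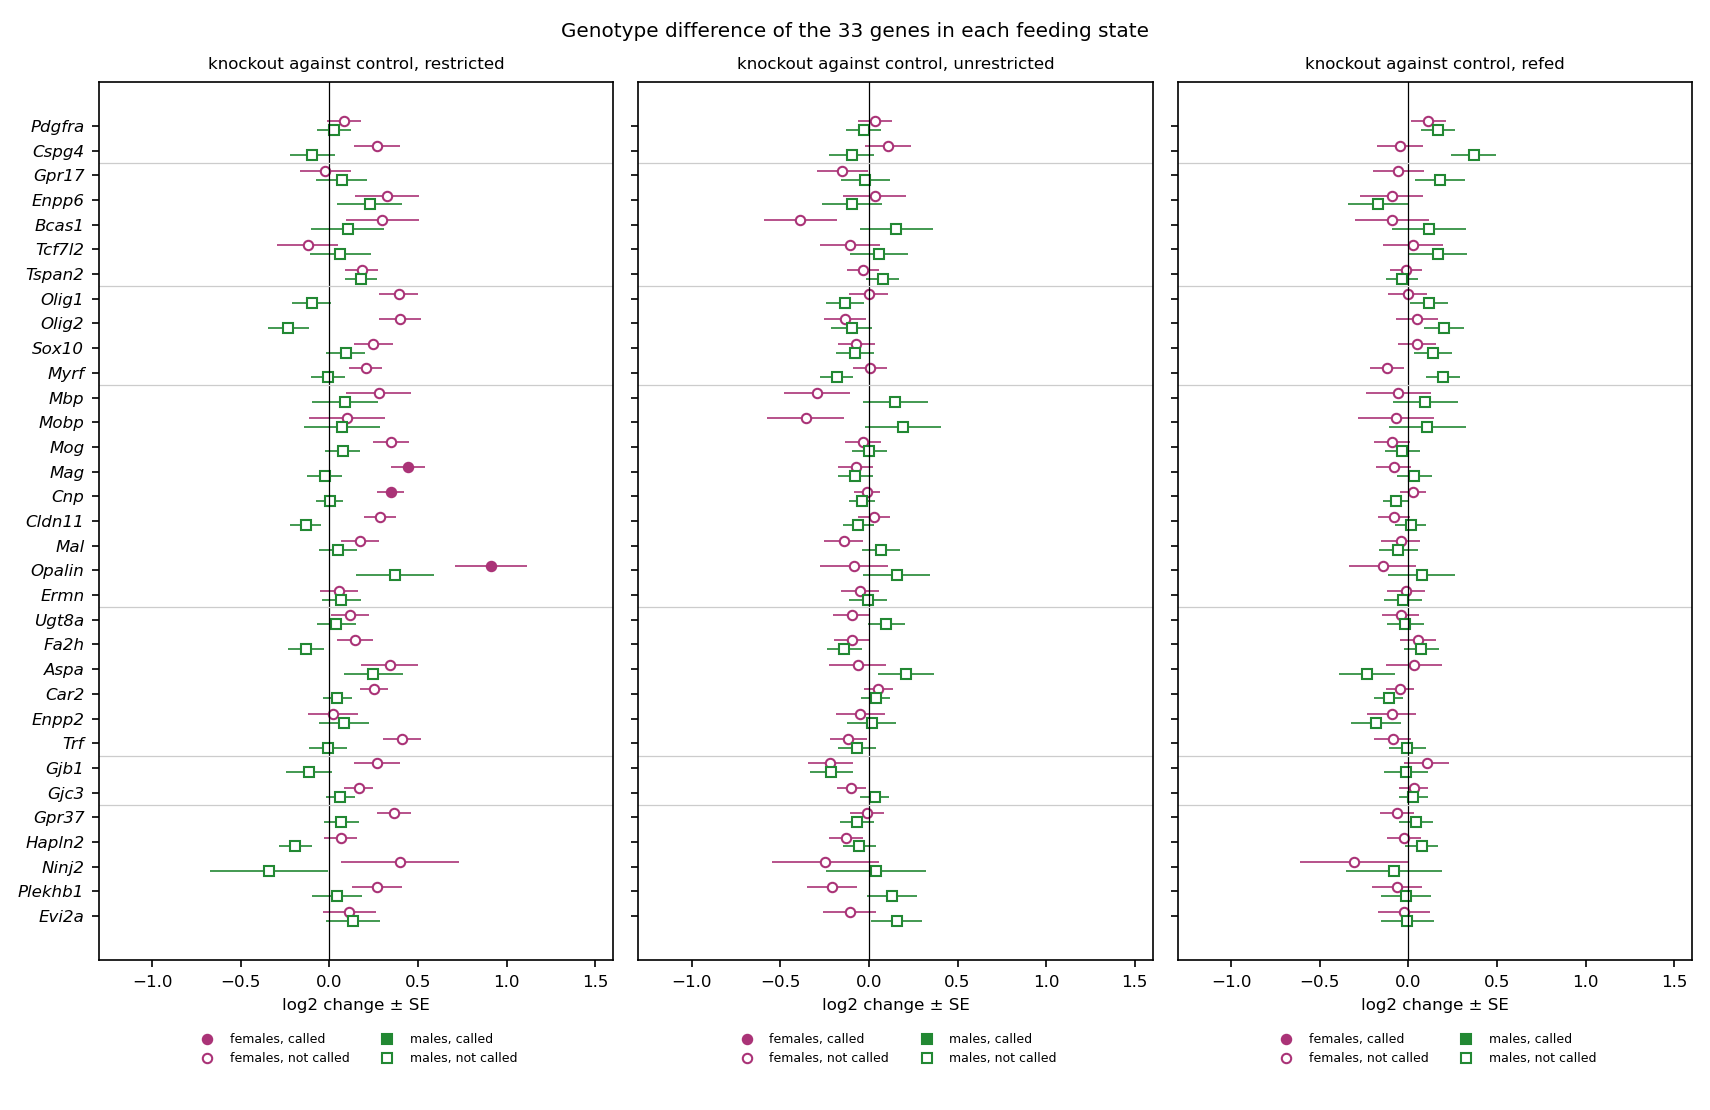
Differences between knockout and control mice for the 33 genes in each feeding state, in females (circles) and males (squares), with the log2 difference on the horizontal axis, bars for the SE and filled symbols for called genes. Only Opalin, Mag and Cnp in restricted females are filled, at 0.91, 0.44 and 0.34, and the other points of restricted females lie mostly right of 0.

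In restricted males 0 of the 33 genes were called in edgeR, DESeq2 or limma, where 0.00576% of all genes were. Hapln2 alone of the 33 had an unadjusted p under 0.05, at -0.19, with no share of all genes given for that threshold. Opalin was at 10.4, 9.19, 12.3 and 9.55 CPM in male controls and at 13.8, 8.89, 17.8 and 13.2 CPM in male knockouts, which overlapped. Mag differed by -0.03 ± 0.10 and Cnp by 0.00 ± 0.07. Tspan2 was the one gene with all 4 male knockouts above all 4 controls, where 0.962% of all genes were, and Hapln2 the one gene with all 4 below, where 0.709% were. The difference of the 2 sexes' genotype effects was itself tested, and 0 of the 33 genes were called for it in edgeR, where 0.0231% of all genes were. In that test 8 genes had an unadjusted p under 0.05, among them Olig2 at 0.63 ± 0.17, Olig1 at 0.49 ± 0.15 and Mag at 0.47 ± 0.14, all with the larger value in females, where 4.53% of all genes were. DESeq2 and limma each called 4. In unrestricted mice of either sex and in refed mice of either sex 0 of the 33 genes were called in edgeR, DESeq2 or limma, where 0.0115% of all genes were called in unrestricted females, 0.00576% in unrestricted males, 0.00576% in refed females and 0.225% in refed males. Male refed mice had 2 of the 33 at an unadjusted p under 0.05, and the other 3 combinations had 0. No share of all genes is given for that threshold, so the 2 are not set against a background.

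Seen from the other side, the fall with restriction was also fitted in each genotype. In females 13 genes fell in controls (1.35% of all genes) and 2, Ugt8a and Car2, in knockouts (1.29%), with medians of -0.34 and -0.01 over the 33 genes. In males 12 fell in controls (1.12%) and 11 in knockouts (1.19%), with medians of -0.27 and -0.26. Opalin was at 27.3, 36.98, 32.5 and 37.8 CPM in unrestricted female controls and at 34.2, 26.6, 32.8 and 32.9 CPM in unrestricted female knockouts. Whether the fall differed by genotype was tested as an interaction, and in females 0 of the 33 genes and 0% of all genes were called in edgeR, with 15 of the 33 at an unadjusted p under 0.05, all with the smaller fall or the larger rise in knockouts, where 3.43% of all genes were. DESeq2 called 0 and limma 4. In males edgeR, DESeq2 and limma called 0 (0% of all genes in edgeR), and the unadjusted p was under 0.05 in 0 of the 33. Without single libraries the counts of falls in males ranged from 6 to 12 in controls and from 5 to 10 in knockouts.

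Between the sexes 0 of the 33 genes were called in edgeR over all genotypes and feeding states, where 0.357% of all genes were. At an unadjusted p under 0.05, 10 genes were lower in males (7.99% of all genes were) and 1, Olig2, was higher, by 0.14 ± 0.05 (9.97%). The lower ones included Bcas1 at -0.30 ± 0.09, Mobp at -0.29 ± 0.09, Opalin at -0.29 ± 0.08, Evi2a at -0.18 ± 0.06 and Plekhb1 at -0.18 ± 0.06. DESeq2 called 1 of the 33 and limma 7, and with the split of library numbers as a term edgeR called 5. Without male control refed replicate 2 there were 6 calls, all lower in males.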

How the data were processed

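The deposited table holds the authors' estimated counts per gene and library, unnormalized; per the submitters' processing notes fastp, STAR, Salmon and mouse genome mm39 were used. Versions, annotation and strand setting are not given in the sources used here. Of the nonzero values 66.1% were whole numbers, and all were rounded, which moved a library's total by at most 51.1. The 33 genes and all further lists (lineage stages, myelin sphingolipid and cholesterol genes, markers of 8 other cell types) were chosen with earlier results of these data known. Sept4 and Pmp2 were listed but not tested.

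Genes were kept by edgeR's filterByExpr (minimum count 10, minimum total 15), leaving 17352, and libraries were scaled by TMM (factors 0.913 to 1.03). A quasi-likelihood model with the mean of each of the 12 groups (edgeR 4.0.16, R 4.3.3) gave every contrast, with Benjamini-Hochberg adjustment over all genes tested and a threshold of 0.05. Contrasts over several groups average their groups equally. Estimated counts without molecular identifiers are not independent molecules, and nothing beyond separate mice separates biological from technical spread. Libraries of the same group differed beyond sampling noise in all 72 pairs. The text names all 33 genes, and from each further list at most 5 called genes with the smallest p; others are said to be named after their values were seen. Some genes of the further lists are not reported here. The comparisons of restriction within a genotype were added after seeing the data.

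Alternatives were other size factors, no filter, age or the split of library numbers as a term, removal of trends over transcript length or GC content, DESeq2 1.42.0, limma 3.58.1 with sample weights, fits to the groups compared alone, a threshold of 0.1 and leaving out each library. The fits were tested on simulated data. Exon overlaps and the upstream windows come from GRCm39 and its GENCODE annotation.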

Additional observations from a re-analysis of the deposited data

Results flagged for a closer look

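In each group of 4 mice the highest or lowest value was examined for a gap to the nearest of the others that takes up most of the group's range. Of 396 groups of gene and condition 19 had such a value, and chance gives about 1 in 20. Opalin in restricted female knockouts was at 15.3 CPM in replicate 1, against 27.8 CPM in the next mouse. Female control restricted replicate 4 was low in Olig2 (14.1 CPM) and in Gjb1 (11.3 CPM). Female control unrestricted replicate 2, the Grin1fl/+ mouse, was low in Fa2h (37 CPM) and in Gjb1 (18 CPM), and replicate 3 of that group was low in Tcf7l2 (21.8 CPM) and high in Ermn (102 CPM). Female control refed replicate 1 was low in Ugt8a (53.0 CPM) and in Gpr37 (79.6 CPM).

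Pdgfra was low in female control refed replicate 2 (30.5 CPM) and high in female knockout refed replicate 1 (39.6 CPM) and male knockout unrestricted replicate 1 (37.2 CPM). Cspg4 was high in male knockout refed replicate 2 (23.5 CPM), and Olig2 was low in male control refed replicate 2 (26.5 CPM). Sox10 was high in female knockout unrestricted replicate 3 (44 CPM), and Mag was low in male control unrestricted replicate 4 (193 CPM). Cldn11 was high in female knockout restricted replicate 3 (185 CPM). Gjc3 was high in female knockout refed replicate 2 (100 CPM) and low in male knockout refed replicate 1 (75.9 CPM).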

How the results depend on the processing

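The 23 calls with restriction kept their sign in all 989 alternative fits and their call in 971, and the 24 calls with refeeding kept their sign in all 1008 and their call in 914. Genes that lost a restriction call in some fit were Aspa, Cldn11, Cnp, Enpp6, Evi2a, Gjc3, Mag, Mog, Ninj2, Olig1, Olig2, Pdgfra, Tcf7l2 and Trf. With refeeding they were Gjc3, Mag, Mobp, Mog, Olig1, Olig2, Pdgfra, Trf and Tspan2. The 3 calls in restricted female knockouts were kept in 24 of 51 fits. Scaling moved the median of all genes by at most 0.034. Depth limits the rarest genes, such as Ninj2 and Enpp6. No paired analysis was possible because the replicate numbers follow only the order of the samples. The fits within ranges of library numbers were added after seeing the data.

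Counts of the 33 genes called moved as follows. In restricted female knockouts there were 7 at a threshold of 0.1, 1 with the library split, 0 with length or GC trends removed, 9 in DESeq2, 8 in limma, 0 in the groups compared alone, and 0 to 6 without single libraries. The sex difference of that effect gave 1 at 0.1, 4 in DESeq2, 4 in limma, and 0 to 3 (3 without male control restricted replicate 4). Refed against unrestricted males gave 2 at 0.1, 1 without the filter, 1 with either trend removed, 2 in DESeq2, 3 in limma, and 0 to 3 (3 without male control refed replicate 2). Over both sexes there were 2 at 0.1, 0 with the library split, 2 in DESeq2, 2 in limma, and 1 to 2. Male refed knockouts gave 0 to 1, with 1 without male control refed replicate 4. For sex there were 2 at 0.1, 3 without the filter, 5 with the split, 1 in DESeq2, 7 in limma, and 0 to 6. Restriction in both sexes gave 10 in libraries up to 28. In male controls it gave 6 in the groups compared alone and 7 to 13 without single libraries, and in male knockouts 6 to 10. Its interaction with genotype in females gave 1 without the filter and 4 in limma.

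Some values changed sign. With restriction, the microglial marker C1qa was called over all libraries at -0.138 but was at 0.025 up to 28. The uncalled values were Bcas1 (0.043 up to 28), Gpr17 (0.099 from 29), Plekhb1 (0.034 with the split, 0.149 up to 28, -0.045 to 0.022 without single libraries) and Tspan2 (0.003 with the length trend removed, 0.006 with the GC trend removed, 0.014 from 29, -0.026 to 0.019). In restricted female knockouts they were Enpp2 (-0.022 with age, -0.062 with the split, -0.078 to 0.121), Ermn (-0.008 to 0.111), Gpr17 (0.085 with the split, 0.018 with the length trend removed, -0.161 to 0.093) and Hapln2 (-0.017 in limma, -0.015 to 0.143). The causes were not tested.

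Correlations across libraries also moved. Mog with Mag had r = 0.12 and Mog with Snap25 r = 0.59 in deviations from group means. From 29, Mog with Pdgfra kept r = -0.43 but no longer passed the test in those fewer libraries, and Trf with Ttr had r = -0.16. Pdgfra with Dcn had r = -0.35 up to 28 and 0.50 from 29. Tcf7l2 with Prkcd had r = 0.16 without the 2 farthest libraries and 0.32 up to 28, but 0.50 from 29 and 0.52 in deviations from group means.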

Other observations

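Across the 48 libraries 7 pairs of genes were set against each other on the log2 CPM scale, with two-sided permutation tests and adjustment over the 7. These libraries share groups and feeding states. Mog and Mag had Pearson's r = 0.61 (permutation p = 1e-05, the smallest the resamples can give; adjusted 7e-05) and Spearman's rho = 0.56 (permutation p = 4e-05). Without the 2 libraries farthest from the median r was 0.51, and it was 0.48 in libraries numbered up to 28 and 0.69 from 29. In deviations from the means of the 12 groups, which these permutations do not hold fixed, r was 0.12. The autotaxin gene Enpp2 and Ttr, an abundant transcript of the choroid plexus, had r = 0.53 (permutation p = 0.00011; adjusted 0.000385) and rho = 0.45 (permutation p = 0.00167). Without the 2 farthest libraries r was 0.38, and it was 0.54 and 0.47 in the 2 ranges of library numbers and 0.62 in deviations from group means. Mog and Pdgfra had r = -0.43 (permutation p = 0.00245; adjusted 0.00572) and rho = -0.43 (permutation p = 0.00256), r = -0.43 without the 2 farthest libraries, r = -0.52 and -0.43 in the 2 ranges, and r = -0.46 in deviations from group means.

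Tcf7l2 and Prkcd, a gene of thalamic neurons, had r = 0.38 (permutation p = 0.00696; adjusted 0.0122) and rho = 0.24 (permutation p = 0.0972). Without the 2 farthest libraries r was 0.16, so the pooled relation rests on those libraries, while r was 0.32 up to 28, 0.50 from 29 and 0.52 in deviations from group means. The other 3 pairs did not pass the test over all libraries. Trf, which the choroid plexus also makes, had r = 0.13 with Ttr (permutation p = 0.364) and rho = 0.08. Mog had r = 0.17 with the neuronal gene Snap25 (permutation p = 0.262) and rho = 0.11, but r = 0.59 in deviations from group means. Pdgfra had r = 0.02 with the fibroblast gene Dcn (permutation p = 0.874) and rho = 0.02.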
